A study of Mus musculus with 6 samples.

Results

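The miR-17 and miR-18 seed families are 8 closely related mouse microRNAs: mmu-miR-17, mmu-miR-20a, mmu-miR-20b, mmu-miR-93, mmu-miR-106a and mmu-miR-106b with the miR-17 seed, and mmu-miR-18a and mmu-miR-18b with the miR-18 seed. Members were chosen by probe name, taking the main strand and not the star strand, which gave 8 of the 1096 mouse probes on the array, with 1 spot each. They were measured in 6 bulk liver samples of mice of C57BL6 background. Of these, 3 were hepatocellular carcinoma (HCC 1, HCC 2-1 and HCC 2-2) and 2 were liver outside the tumour (NT 1 and NT 2), all from STAM mice. STAM mice received streptozotocin, which damages insulin-producing cells, and a high-fat diet, and pass through fatty liver inflammation to HCC, which the labels place at 18 weeks of age. The remaining sample was the liver of 1 control mouse (normal liver), whose age and feeding the labels do not give. The labels do not say which samples share an animal, so the p-values rest on a spread between arrays that may be technical.

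A microRNA guides the silencing complex to messenger RNAs that pair with its seed, bases 2 to 8 from the 5′ end, so microRNAs with the same seed share most of their targets. The miR-17 seed is known for repressing brakes on the cell cycle and promoters of cell death, such as Cdkn1a and Bcl2l11, and the genes of these families are transcribed together in clusters that MYC and E2F factors activate. They are abundant in dividing cells and are known as oncogenic microRNAs in many tumours, liver cancer among them.

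The mature sequences are shown because the members differ by few bases, which bears on how far separate probes can tell them apart. RefSeq (GRCm38.p6) held all 8, printed here from 5′ to 3′ with the seed in capitals. The first 6 share the seed AAAGUGC and the last 2 the seed AAGGUGC.
mmu-miR-17: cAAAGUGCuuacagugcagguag
mmu-miR-20a: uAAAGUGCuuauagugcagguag
mmu-miR-106a: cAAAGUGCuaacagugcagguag
mmu-miR-20b: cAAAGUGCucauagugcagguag
mmu-miR-93: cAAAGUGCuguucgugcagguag
mmu-miR-106b: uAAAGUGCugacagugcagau
mmu-miR-18a: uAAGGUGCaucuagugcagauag
mmu-miR-18b: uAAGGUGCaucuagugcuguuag

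Counting positions from 1 at the 5′ end and giving the base of the first-named microRNA first, miR-17 and miR-106a differ at 1 of 23 positions (U10A). MiR-17 and miR-20a differ at 2 (C1U and C12U), as do miR-20b and miR-106a (C10A and U12C) and miR-18a and miR-18b (A18U and A20U). Between the seeds the change is A4G, from miR-17 to miR-18a. Probe sequences were not used here, and whether a probe also bound a related member was not tested.

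The genes lie in 3 clusters. In GRCm38.p6, the mature sequences of miR-17, miR-18a and miR-20a lie within 522 bases on the plus strand, at chr14:115043684-115044205, in the cluster known as miR-17-92. Those of miR-106a, miR-18b and miR-20b lie within 405 bases on the minus strand, at chrX:52742159-52742563. Those of miR-93 and miR-106b lie within 234 bases on the minus strand, at chr5:138165574-138165807, inside the gene of Mcm7, a subunit of the replicative helicase. No protein-coding gene of that annotation spans the members on chromosomes 14 and X.

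Values are log2 intensities after background correction with an offset of 50 and quantile normalization between arrays, so that 1 unit is a doubling of the corrected signal. The offset is of the size of the miR-17 seed members' own signal and well above that of miR-18a and miR-18b. It compresses differences toward 0, most of all for miR-18a and miR-18b. A spot counted as above background where it exceeded the mean of the array's blank spots by more than 2 SD. Of 1096 mouse probes, 403 to 540 were above background per array. The liver markers miR-122, miR-192 and miR-194 were above background on all 6 arrays, miR-122 at 12.38 in normal liver, 12.52 ± 0.19 in NT (SD, n = 2) and 12.21 ± 0.54 in HCC (n = 3). Each of 3 chips carried 2 of the arrays: chip 1 those of normal liver and NT 1, chip 2 those of NT 2 and HCC 1, chip 3 those of HCC 2-1 and HCC 2-2. Scanner gain was 38 on the 3 arrays without tumour, 41 on HCC 1 and 39 on chip 3. Gain and tumour tissue therefore cannot be told apart, and in bulk RNA neither can fewer cells of a type and less RNA per cell.

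Of the 8 members, 7 were above background on all 6 arrays. MiR-18b was so on 3: NT 1, NT 2 and HCC 2-2. The spots of the members were dim beside that of miR-122. Their median log2 value per array was 6.73 to 7.01, against 5.85 to 5.88 over all tested miRNAs. Spots of miR-18a read 21 in normal liver, 19 (NT 1), 23 (NT 2), 32 (HCC 1), 29 (HCC 2-1) and 34 (HCC 2-2). The thresholds for background were 14.5 to 20.7. The spot of miR-17 read 72 in normal liver, 77 (NT 1) and 129 (NT 2) outside the tumours and 107 (HCC 1), 143 (HCC 2-1) and 207 (HCC 2-2) in tumours, against blank levels of 12.5 to 17.6. The signal above the blanks, summed over the 8 members, ranked by chip, with a wide gap inside chip 3. It was 274 and 304 on the arrays of chip 1 (normal liver and NT 1) and 468 and 520 on those of chip 2 (HCC 1 and NT 2). On those of chip 3 (HCC 2-1 and 2-2) it was 574 and 831. Chip 3 held HCC alone and chip 1 no HCC, so chip and tissue cannot be fully told apart in the sums. These sums are not normalized, and the part of the chip in them was not tested.

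**Figure D1:**
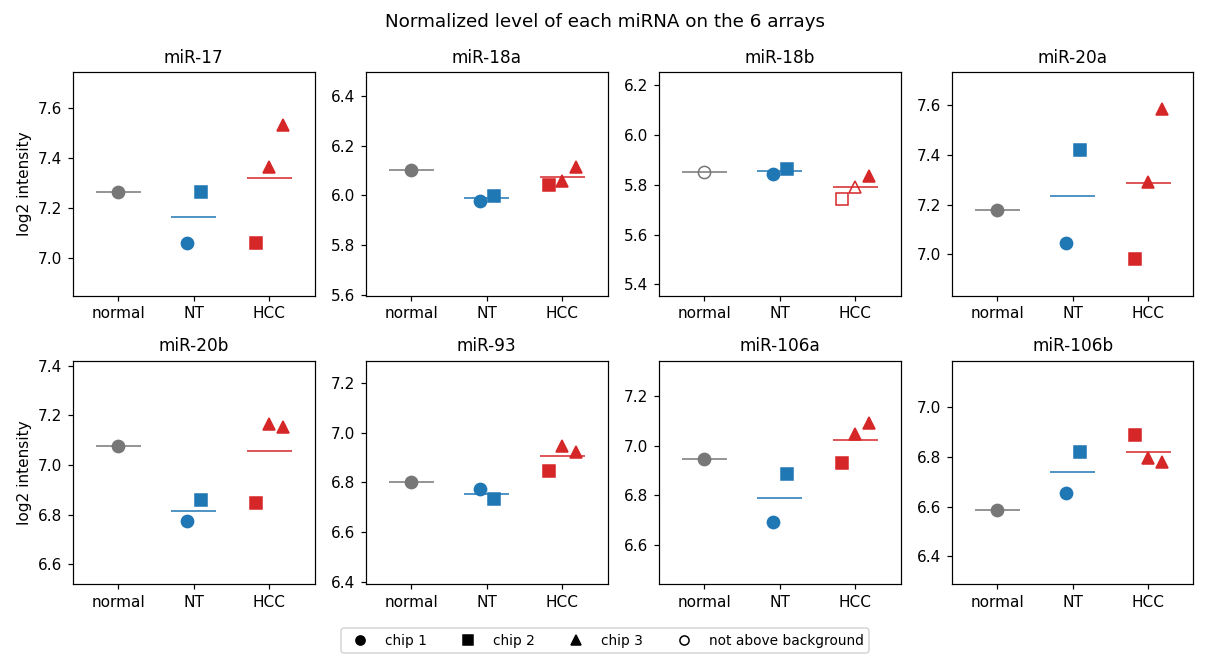
Normalized level of each member (log2 intensity, vertical axes of equal span) in normal liver, NT and HCC, with 1 point per array, the shape giving the chip and the line the group mean. The HCC points of miR-18a, miR-93 and miR-106a all lie above both NT points, and those of miR-17 and miR-20a are spread widely.

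In tumours, members of the miR-17 seed family were on average slightly higher than in liver outside the tumours, and none of the 8 members passed the test. All 6 members with the miR-17 seed were higher in HCC by group mean, by 0.05 to 0.24. Of the miR-18 seed pair, miR-18a was higher by 0.08 and miR-18b lower by 0.06. Over the 8 members, 7 were higher and the median difference was 0.12. Over all 613 tested miRNAs, 313 were higher and the median difference was 0.0013. At limma's adjusted p under 0.05, 0% of the tested miRNAs were called between HCC and NT, and 0 of 8 members were. At an unadjusted p under 0.05, 56 of 613 miRNAs and 2 of 8 members (miR-93 and miR-106a) passed.

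Of the chromosome 14 cluster, miR-17, its first member, was at 7.26 in normal liver, 7.06 in NT 1, 7.26 in NT 2, 7.06 in HCC 1, 7.36 in HCC 2-1 and 7.53 in HCC 2-2. HCC 1 stood level with NT 1, and only the HCC arrays of chip 3 exceeded both NT arrays. The group means were 7.16 ± 0.14 in NT (SD, n = 2) and 7.32 ± 0.24 in HCC (n = 3), a difference of 0.16 (SE 0.16, 95% interval -0.26 to 0.57, limma's adjusted p = 0.834). MiR-20a, which differs from miR-17 by 2 bases, was at 7.18 in normal liver, at 7.05 (NT 1) and 7.42 (NT 2) outside the tumours and at 6.98 (HCC 1), 7.29 (HCC 2-1) and 7.59 (HCC 2-2) in tumours. Its lowest and its highest array were both HCC, so the groups overlapped fully. The difference of HCC minus NT was 0.05 (SE 0.22, 95% interval -0.51 to 0.62, limma's adjusted p = 0.951). Its direction turned with cyclic loess normalization (-0.0085) and without NT 1 (-0.13) or HCC 2-2 (-0.10).

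MiR-18a, encoded between miR-17 and miR-20a, was at 6.10 in normal liver, at 5.98 (NT 1) and 6.0 (NT 2) outside the tumours and at 6.04 (HCC 1), 6.06 (HCC 2-1) and 6.11 (HCC 2-2) in tumours. All HCC arrays lay above both NT arrays and HCC 2-2 alone above normal liver. The difference of HCC minus NT was 0.08 (SE 0.04, 95% interval -0.0084 to 0.18, limma's adjusted p = 0.576). It was -0.015 when arrays were scaled to the median of the probes above background on all arrays. The size of the difference depended on the background correction: it was 0.17 with an offset of 16 and 0.43 with the blank level subtracted, and miR-18a did not pass with either.

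Of the X chromosome cluster, miR-106a was at 6.95 in normal liver, at 6.69 (NT 1) and 6.89 (NT 2) outside the tumours and at 6.93 (HCC 1), 7.05 (HCC 2-1) and 7.09 (HCC 2-2) in tumours. Every HCC array was above both NT arrays, HCC 1 by a narrow margin over NT 2. The difference was 0.23 (SE 0.08, 95% interval 0.02 to 0.45, limma's adjusted p = 0.536). MiR-20b, encoded in the same cluster, was at 7.08 in normal liver, at 6.77 (NT 1) and 6.86 (NT 2) outside the tumours and at 6.85 (HCC 1), 7.17 (HCC 2-1) and 7.15 (HCC 2-2) in tumours. The HCC arrays of chip 3 stood apart from the NT arrays, and HCC 1 lay between NT 1 and NT 2. Its difference was 0.24 (SE 0.11, 95% interval -0.06 to 0.54, limma's adjusted p = 0.629), the highest of the 8 members. MiR-18b was at 5.85 in normal liver, at 5.84 (NT 1) and 5.86 (NT 2) outside the tumours and at 5.74 (HCC 1), 5.79 (HCC 2-1) and 5.84 (HCC 2-2) in tumours, where normal liver, HCC 1 and HCC 2-1 were not above background. The HCC arrays lay below both NT arrays, with a difference of -0.06 (SE 0.04, 95% interval -0.16 to 0.04, limma's adjusted p = 0.704).

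Of the chromosome 5 pair, miR-93 was at 6.80 in normal liver, at 6.77 (NT 1) and 6.73 (NT 2) outside the tumours and at 6.85 (HCC 1), 6.95 (HCC 2-1) and 6.92 (HCC 2-2) in tumours. All HCC arrays were above the other 3 arrays. The difference of HCC minus NT was 0.15 (SE 0.04, 95% interval 0.04 to 0.27, limma's adjusted p = 0.465), which ranked 23rd by p among the 613 miRNAs. MiR-106b was at 6.59 in normal liver, at 6.66 (NT 1) and 6.82 (NT 2) outside the tumours and at 6.89 (HCC 1), 6.79 (HCC 2-1) and 6.78 (HCC 2-2) in tumours. NT 2 lay inside the range of HCC, and normal liver was the lowest array. Its difference was 0.08 (SE 0.07, 95% interval -0.09 to 0.26, limma's adjusted p = 0.760), and -0.0013 without NT 1.

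**Figure D2:**
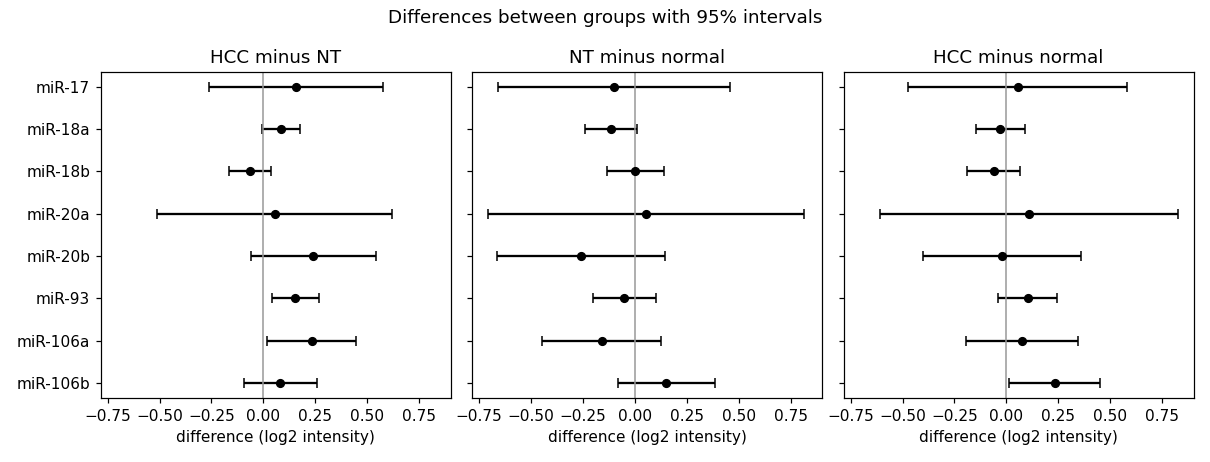
Difference between groups for each member (log2 intensity, horizontal axis) with the 95% interval of limma's fit. Intervals of miR-93 and miR-106a lie above 0 for HCC minus NT and that of miR-106b for HCC minus normal liver, before adjustment over the 613 miRNAs, after which no member passed.

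By normalized value, miR-18a, miR-93 and miR-106a were higher on every HCC array than on either NT array, and miR-18b was lower. Such separation toward higher values in HCC was seen for 10.9% of the 613 tested miRNAs, and toward lower values for 12.7%. MiR-18a, miR-93 and miR-106a were not separated in the authors' deposited table of processed values. There, HCC 1 lay below both NT arrays for miR-93 (263 against 291 and 302) and miR-106a (276 against 280 and 370). HCC 1 and HCC 2-1 lay below NT 2 for miR-18a (46.7 and 53.6 against 63.0). MiR-18b, without a value on HCC 1, was higher on the other HCC arrays (16.6 and 15.9) than in NT (12.4 and 10.3). For miR-18b the separation rests on normalized values near the background, with HCC 1 and HCC 2-1 not above it. The raw spots of miR-18b were not lower in HCC. They read 15 (NT 1), 17 (NT 2), 18 (HCC 1), 17 (HCC 2-1) and 17 (HCC 2-2). The blank levels, however, were higher on the HCC arrays (14.2 to 17.6) than on the NT arrays (12.5 and 13.1). Above the blanks miR-18b read 2.5 (NT 1), 3.9 (NT 2), 0.4 (HCC 1), 1.9 (HCC 2-1) and 2.8 (HCC 2-2). With the blank level subtracted its difference of HCC minus NT was -1.13 (limma's adjusted p = 0.391). The size of the members' shift, and for some members its direction, differed with the arrays compared. Chip 2 was the sole chip with both tissues, and there HCC 1 minus NT 2 was higher for 4 of 8 members, with a median of 0.016, against 292 of 613 miRNAs and a median of 0. Within it, miR-93 differed by 0.12, miR-106b by 0.07, miR-18a by 0.05 and miR-106a by 0.04. MiR-20b differed there by -0.011, miR-18b by -0.12, miR-17 by -0.20 and miR-20a by -0.44. With the chip as a block these within-chip values are the estimates. The members' median for HCC minus NT was 0.065 without NT 1, 0.20 without NT 2 and 0.19 without HCC 1. It was above 0 under all 17 other settings tried. The settings without a filter on dim probes and with another prior leave this median unchanged by construction. Testing only probes above background on all arrays drops miR-18b, the member lower in HCC, which raises it.

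NT 1 and NT 2 also differed from each other. NT 2 minus NT 1 had a median of 0.13 over the members, against 0 over all tested miRNAs, with miR-20a at 0.37, miR-17 at 0.20 and miR-93 at -0.04. The spread of miR-17 and miR-20a within a group was therefore as large as any difference between groups. The wide intervals of both allow a fall as well as a rise in HCC. A p that misses the threshold does not show that their levels were equal.

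Outside the tumours, no member was separated from normal liver by the test, and the direction of the family depended on the scaling. In NT minus normal liver, 3 of 8 members were higher and 5 lower, with a median of -0.08 against -0.0021 over all tested miRNAs. The median turned to 0.22 with each array scaled to its median, to 0.04 with scaling to the median of the bright probes and to 0.51 in the authors' deposited table of processed values. At limma's adjusted p under 0.05, 0.163% of the miRNAs were called, which was miR-451 of red blood cells alone, and 0 members were. At an unadjusted p under 0.05, 77 of 613 miRNAs and 0 of 8 members passed. Without NT 1 the median was -0.03, and without NT 2 it was -0.13. The differences ran from -0.26 for miR-20b (SE 0.15, 95% interval -0.66 to 0.14, limma's adjusted p = 0.501) to 0.15 for miR-106b (SE 0.09, 95% interval -0.08 to 0.38, limma's adjusted p = 0.501). MiR-18a, at -0.11 (SE 0.05, limma's adjusted p = 0.417), had the smallest p of the 8. Only miR-106b was higher on both NT arrays than in normal liver, where 36.7% of the tested miRNAs were. MiR-18a, miR-20b, miR-93 and miR-106a were lower on both, as 35.1% of the tested miRNAs were. MiR-18b, not above background in normal liver, differed by 0.0020 (95% interval -0.13 to 0.14). That sets no lower limit for NT over normal liver.

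Between HCC and normal liver, no member passed the test, and the size and direction of the median depended on the processing. Here 5 of 8 were higher and the median difference was 0.06, against 320 of 613 higher and a median of 0.0055 over all tested miRNAs. The members' median was 0.58 with each array scaled to its median, 0.24 with scaling to the median of the bright probes and 0.59 in the authors' deposited table of processed values. It turned to -0.17 with the chip as a block and to -0.05 without HCC 2-2, and was 0.13 without HCC 1. At limma's adjusted p under 0.05, 0.163% of miRNAs were called, again miR-451 alone, and 0 members. MiR-106b had the largest difference, 0.23 (SE 0.08, 95% interval 0.01 to 0.45, limma's adjusted p = 0.297), and was the 1 member with an unadjusted p under 0.05, as 99 of 613 miRNAs had. MiR-106b and miR-93 (0.10, SE 0.05, limma's adjusted p = 0.433) were higher on all 3 HCC arrays, as 33% of the tested miRNAs were. MiR-18b, not above background on 2 of these arrays or in normal liver, was the member lower on all 3, as 30.8% of the tested miRNAs were. The other differences were 0.11 for miR-20a, 0.07 for miR-106a, 0.06 for miR-17, -0.02 for miR-20b, -0.03 for miR-18a and -0.06 for miR-18b. The control liver is 1 array, and its unknown spread was taken to be that seen within NT and HCC.

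By group mean, the order was normal liver, NT, HCC from low to high for miR-20a and miR-106b. For miR-17, miR-93 and miR-106a it was NT, normal liver, HCC. For miR-18a and miR-20b it was NT, HCC, normal liver. No order is given for miR-18b, which was not above background on 3 arrays. No pair of neighbours in any of these orders passed the test. The orders depend on the processing. In the authors' deposited values, NT and HCC both lay above normal liver by mean log2 value for each of these members.

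The authors' deposited table of processed values gives the levels without an offset added here. In it, miR-17 was at 348 in normal liver, at 406 (NT 1) and 607 (NT 2) outside the tumours and at 351 (HCC 1), 541 (HCC 2-1) and 765 (HCC 2-2) in tumours. MiR-106b was at 158 in normal liver, at 261 (NT 1) and 343 (NT 2) outside the tumours and at 259 (HCC 1), 309 (HCC 2-1) and 339 (HCC 2-2) in tumours. MiR-18a was at 31.1 in normal liver, at 37.0 (NT 1) and 63.0 (NT 2) outside the tumours and at 46.7 (HCC 1), 53.6 (HCC 2-1) and 88.6 (HCC 2-2) in tumours. In these values normal liver was the lowest array for miR-17, miR-18a, miR-93, miR-106a and miR-106b. It was so for miR-18b too, which has no value on HCC 1, though not for miR-20a and miR-20b, where HCC 1 was lower. On their log2 scale the median over the 7 members with a value on all arrays was 0.51 when NT, and 0.59 when HCC, was set against normal liver. The median of the 348 tested miRNAs with values on all arrays also lay above 0, at 0.33 and 0.32. For HCC minus NT the members' median was 0.13 and that of all such miRNAs -0.07, and no member passed limma's test on these values either.

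**Figure D3:**
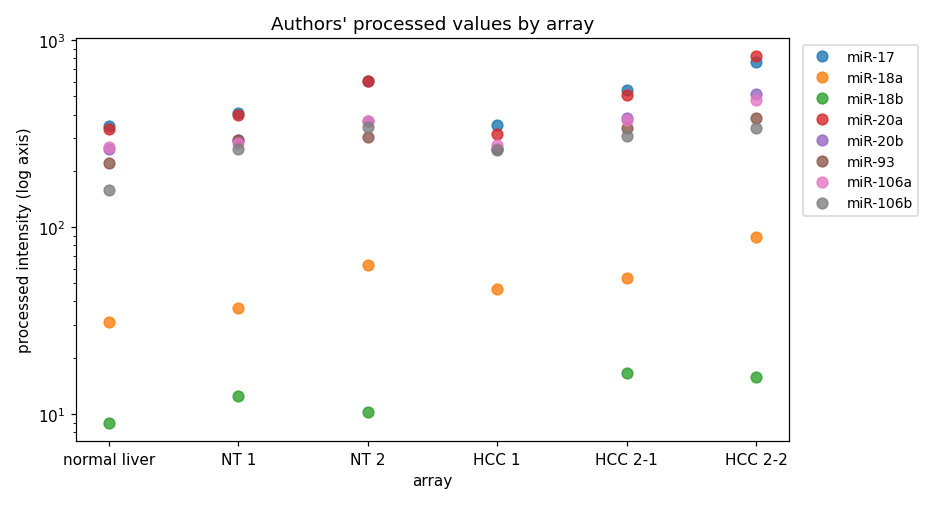
Processed intensity from the authors' deposited table (log axis) for each member on the 6 arrays, 1 point per miRNA and array, to be read along each miRNA. HCC 1 lies near normal liver for miR-17, miR-20a, miR-20b and miR-106a, and miR-18b has no value on HCC 1.

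The members did not all follow the same profile over the arrays. As a measure of likeness, the root mean square difference between centred log2 values over the 6 arrays was taken for the 7 members above background on all of them. It was 0.077 to 0.19 for the 5 pairs from the same cluster (median 0.11) and 0.059 to 0.22 for the 16 pairs from different clusters (median 0.13), so the ranges overlapped. The closest pair was miR-18a with miR-93 (0.059), from different clusters. MiR-20b with miR-106a followed at 0.077, and miR-17 was at 0.087 from both miR-20a and miR-20b and at 0.097 from miR-106a, its nearest relative in sequence. MiR-20a and miR-106b were the least alike (0.22). The measure favours dim probes, whose values the offset holds close to level. By the same measure against the mean of the 7 members, the nearest of 275 other bright miRNAs were miR-204* (0.059), miR-363-5p (0.062), miR-5130 (0.065), miR-1964-5p (0.066) and miR-744 (0.066). The members themselves lay between 0.049 for miR-106a and 0.14 for miR-20a. Each member is part of that mean, which favours it over the other miRNAs. Even so, miR-106b ranked 98th and miR-20a 111th among the 282 bright miRNAs.

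The other miRNAs of the 3 clusters did not pass in any comparison either. For HCC minus NT, 3 of the 5 other main strands were higher, with a median of 0.014: miR-363-3p (0.08), miR-19a (0.05), miR-25 (0.014), miR-92a (-0.10) and miR-19b (-0.11). Members of the miR-17 seed and miR-19b or miR-92a of the same clusters had opposite signs, with 0 of them passing and the difference between them not tested. Of the 15 star strands, 7 were tested and 5 were above background on no array. Among these 7, 4 were higher in HCC, with a median of 0.018, and miR-363-5p (0.17, limma's adjusted p = 0.536), from the X chromosome cluster, was higher on all HCC arrays. The star strands of miR-18a, miR-20a and miR-106a were not above background on any array, and that of miR-93 was on 1.

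Markers of other cell types were read beside the members. All 7 leukocyte miRNAs tested were lower in HCC than in NT by group mean, with a median of -0.13, and their signal above the blanks, summed per array, was 72.6 in normal liver, from 180 to 320 in NT and from 167 to 253 in HCC. All 4 stellate or mesenchymal markers (median -0.31), both endothelial markers (median -0.34) and 3 of 4 bile duct markers (median -0.25) were also lower in HCC by group mean, as were all 3 hepatocyte markers (median -0.30). Their sums per array were 135 in normal liver, 210 to 386 in NT and 183 to 222 in HCC for the stellate or mesenchymal list. Endothelial sums were 586, 1063 to 1283 and 789 to 1848 in that order, bile duct sums 54.2, 77 to 99.4 and 21.4 to 82.2, and hepatocyte sums 7142, 7298 to 7879 and 4332 to 9716. The erythroid sum, which miR-451 dominates, was 15.6 in normal liver, from 411 to 534 in NT and from 451 to 798 in HCC. None of these lists had a marker called between HCC and NT, and every marker found on the array was above background on at least 1 array. The sums, unlike the medians, are not normalized between arrays. MiR-122 makes up most of the hepatocyte sum and miR-126-3p most of the endothelial sum. The part of the markers in the members' levels was not tested.

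**Figure D4:**
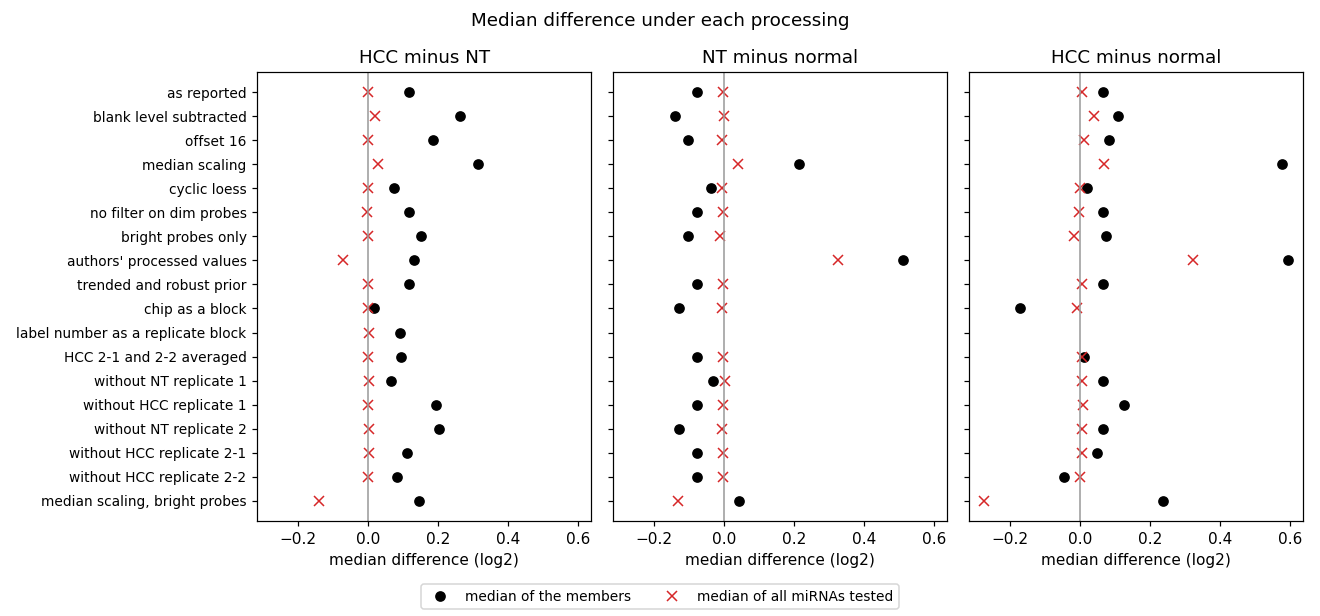
Median difference of the members (points) and of all tested miRNAs (crosses) in log2 units under each processing, 1 panel per comparison. For HCC minus NT the members' median stays above 0 in every row, near 0 with the chip as a block, and for both comparisons with normal liver it changes sign between rows. The rows without a filter on dim probes and with the trended and robust prior repeat the reported members' median by construction.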

How the data were processed

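Total RNA of 6 liver samples was labelled with Hy5, per the labels, and hybridised to a mouse miRNA chip (Toray, design version 17, scanned at 635 nm, per the file headers). The deposited scanner files give raw spot and local background intensity, with no normalization recorded in the headers. The authors' deposited table of processed intensity values is linear in the spot (r of 0.99996 to 0.99999 across probes), with a median of 25 per array. No source used here gives how its background was set.

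For the results here, normexp with an offset of 50, log2 and quantile normalization were applied to 1095 mouse probes (R 4.3.3, limma 3.58.1). The probe left out had a spot marked not OK. The blank level is the mean of 1818 blank spots after leaving out 5% at each end. Tests covered the 613 probes that exceeded background on 2 or more of the 6 arrays, in a limma model with 3 groups (3 residual and 1.63 prior degrees of freedom), adjusted by Benjamini-Hochberg at 0.05 within each comparison. The fit was tested on simulated data. The number of arrays limits the precision.

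Every member is named. The cluster and marker lists, the likeness rule and the members were chosen with earlier results of these data known. MiR-363 was matched by arm. MiR-486 and miR-199a-3p had no probe of that name alone and were not used. Treated HepG2 cells, which the design text mentions, were not analysed here. Alternatives covered background, offset, normalization, filter, prior, chip and replicate blocks, the authors' values and left-out arrays.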

Additional observations from a re-analysis of the deposited data

How the results depend on the processing

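No member passed limma's test in any comparison under any of the 17 alternative settings for HCC minus NT or the 16 for each comparison with normal liver, except that miR-18b was not tested with the stricter filter (probes above background on all arrays) or in the authors' values. The setting with scaling to the median of the bright probes (those above background on all arrays) was chosen after seeing the data. It moved the median of all tested miRNAs to -0.14 (HCC minus NT), -0.13 (NT minus normal liver) and -0.27 (HCC minus normal liver). For HCC minus NT the number of miRNAs called, 0 as reported, was 1 without a filter on dim probes, 3 with a trended and robust prior and 20 with bright-probe scaling. For NT minus normal liver, 1 as reported, it was 0 with median scaling and with the chip as a block, 5 in the authors' values and with the trended prior, and 17 with bright-probe scaling. For HCC minus normal liver, 1 as reported, it was 14 in the authors' values, 8 with the trended prior, 0 with the chip as a block and 39 with bright-probe scaling. Left-out arrays gave 0 to 1 in both comparisons with normal liver, and the call ended in each without NT 1, NT 2, HCC 1 or HCC 2-2.

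The members' median for HCC minus NT was 0.26 with the blank level subtracted, 0.31 with median scaling, 0.016 with the chip as a block and 0.065 to 0.20 with an array left out. For NT minus normal liver it was 0.22 with median scaling, 0.51 in the authors' values and 0.044 with bright-probe scaling. For HCC minus normal liver it was 0.58, 0.59 and 0.24 under those settings, -0.17 with the chip as a block and -0.046 to 0.13 with an array left out. Single members that changed direction follow, none of which had passed as reported, and the cause was not tested. For HCC minus NT, the chip as a block turned miR-17 (-0.20), miR-20a (-0.44) and miR-20b (-0.011), and bright-probe scaling miR-18a (-0.015). MiR-20a also turned with cyclic loess (-0.0085), with a replicate block on the label number (-0.016) and with HCC 2-1 and 2-2 averaged (-0.022). With an array left out, miR-20a ranged from -0.13 to 0.24 and miR-106b from -0.0013 to 0.16. For NT minus normal liver, median scaling turned miR-17 (0.33), miR-20b (0.12), miR-93 (0.22) and miR-106a (0.21). The authors' values turned miR-17 (0.51), miR-18a (0.63), miR-20b (0.32), miR-93 (0.44) and miR-106a (0.26). Bright-probe scaling turned miR-17 (0.16), miR-18b (-0.15), miR-93 (0.054) and miR-106a (0.035), cyclic loess miR-17 (0.051), and the chip block miR-18b (-0.0083) and miR-20a (-0.13). With an array left out, miR-17 ranged from -0.20 to 0, miR-18b from -0.0083 to 0.012 and miR-20a from -0.13 to 0.24. For HCC minus normal liver, the chip block turned miR-17 (-0.41), miR-20a (-0.57) and miR-106a (-0.21), and averaging HCC 2-1 and 2-2 turned miR-17 (-0.0093). MiR-18a turned with the blank level subtracted (0.0041), median scaling (0.15) and the authors' values (0.96), and miR-20b with median scaling (0.52), the authors' values (0.50) and bright-probe scaling (0.18). With an array left out, miR-17 ranged from -0.052 to 0.18, miR-20a from -0.042 to 0.26 and miR-20b from -0.076 to 0.083. The deviations of NT 1 and HCC 1, which share a label number, from their group means were weakly correlated across miRNAs (r = 0.16, not tested). With 2 NT arrays, whose deviations mirror each other, NT 2 with the mean of HCC 2-1 and 2-2 gives the same value by construction. The labels do not state what the number marks, so the replicate block is an alternative only, and it moved no call.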
